A study of Homo sapiens with 11 samples.

Results

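The sites bound by the estrogen receptor (ER) after estradiol were compared with those bound by the glucocorticoid receptor (GR) after dexamethasone in Ishikawa cells (a line derived from a human endometrial cancer), with each receptor given its own hormone alone. The members were every peak of the 2 chromatin immunoprecipitation sequencing (ChIP-seq) lists concerned, 3560 ER sites and 1815 GR sites, which are 5375 of the 90458 regions in the 8 lists analysed. Per the labels, ER was mapped after 1 h of 10 nM estradiol with antibody HC-20, and GR after 1 h of 100 nM dexamethasone with antibody E-20. Further lists were used as readouts that played no part in sorting the sites. They were ER and GR after 1 h of both hormones, and H3K27ac (acetylation of lysine 27 on histone H3, found at active enhancers and promoters) after 8 h of estradiol, dexamethasone, both hormones or the vehicle DMSO. Before treatment all cells had been kept in phenol red-free medium with charcoal-stripped serum, which is depleted of steroids. Every group was 1 library of 1 cell line, so no test between conditions was possible and the 95% intervals below cover counting error over sites only. The identity of the line was not checked, since peak lists hold no expression.

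ER and GR belong to the same family of nuclear receptors. Each binds its hormone, moves onto DNA as a dimer and recruits coactivators that acetylate the surrounding histones. Estradiol drives growth of the endometrial epithelium, while glucocorticoids act in nearly every tissue on metabolism, stress and inflammation. The hormone response elements of ER and GR are both inverted repeats spaced by the same number of bases, but their repeated sequences differ. Both receptors are also known to use chromatin that other factors have already opened. In a bulk culture, binding in more cells and stronger binding per cell cannot be told apart.

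The ER library held 8508828 usable tags and the GR library 6353466. ER peaks covered 0.0239% of the effective genome and GR peaks 0.0111%, against 0.665% for vehicle H3K27ac. The fold enrichments and −log10 q values given below are the authors' own, and they were used to rank sites within a list and not between lists. ER sites had a median fold enrichment over the control of 14.0 and a median width of 158 bp. GR sites had 13.0 and 148 bp.

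Most sites of each receptor were not sites of the other. Of the 3560 ER sites, 357 (10.0%, 9.06 to 11.1) overlapped a GR site by at least 1 bp, and these are called shared. That left 3203 separate ER sites. Of the 1815 GR sites, 364 (20.1%, 18.2 to 22.0) overlapped an ER site, which left 1451 separate GR sites. The GR share depended on how many ER sites were counted: with the ER list cut to the 1815 strongest, 10.4% of GR sites and 10.2% of ER sites were shared, so the shares of the 2 lists no longer differed beyond their intervals (9.05 to 11.9 for GR, 8.84 to 11.7 for ER).

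Strong sites of neither list were shared more often than weak ones. From the weakest 25% of the ER list to the strongest, the shared portion was 11.6%, 8.20%, 10.4% and 9.89%. In the GR list the portion was highest at the weak end, at 27.1% (23.1 to 31.4) in the weakest 25%, then 18.3% and 20.5%, and 14.3% (11.3 to 17.9) in the strongest 25%.

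At the shared sites the ER and GR peaks mostly coincided. Overlap of intervals this narrow keeps their summits close by construction, and the receptors were mapped in separate libraries under different hormones. The shared sites formed 367 overlapping pairs, since 10 ER sites met more than 1 GR site and 3 GR sites met more than 1 ER site. In 349 pairs the overlap covered at least 50% of the shorter interval, and in 188 the shorter interval lay wholly inside the longer. The median distance between ER and GR summits was 38 bp (quartiles 15 and 73 bp), with 124 pairs within 20 bp and 300 within 100 bp.

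ER strength at a pair said little about GR strength. Spearman's rho between the −log10 q of the ER site and that of its GR site was 0.06 over the 367 pairs, a description across sites that share both libraries. The strongest 25% of each list held 88 shared ER sites and 65 shared GR sites, and the weakest 25% held 103 and 123. Of the pairs, 17 joined sites from the strongest 25% of both lists, and 35 joined sites from the weakest 25% of both. A further 29 joined an ER site of the strongest 25% with a GR site of the weakest 25%, and 21 were the reverse. Shared ER sites had a median −log10 q of 24.8, against 24.7 at separate ER sites. Shared GR sites had a median of 19.7, against 23.0 at separate GR sites. In both lists the shared sites were wider, with a median of 188 against 156 bp for ER and 164 against 146 bp for GR. Wider intervals meet a 1 bp overlap rule more easily, and the part of width in the comparisons of shared and separate sites was not tested.

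**Figure D1:**
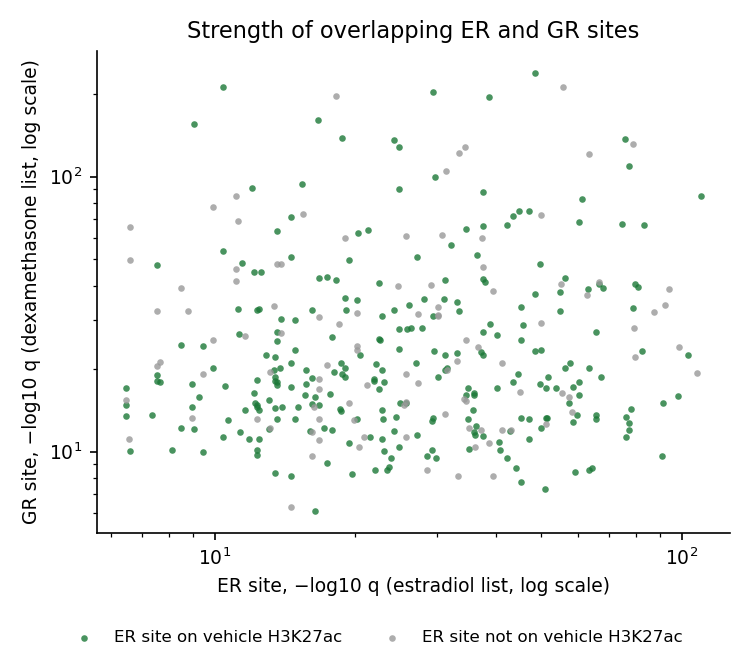
Each point is 1 of the 367 overlapping pairs, placed by the authors' −log10 q of its ER site (horizontal, log scale) and of its GR site (vertical, log scale), in green where the ER site overlapped vehicle H3K27ac and in grey where it did not. The cloud has no slope (Spearman's rho 0.06), and green points lie throughout it.

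The strongest shared ER sites carried GR sites of very different strength. The first, chr3:176931537-176931889 in hg19, had an ER fold enrichment of 44.0 and a GR fold enrichment of 21.7, with summits 3 bp apart, and was acetylated in all 4 H3K27ac lists. The second, chr16:50987470-50987687, had an ER fold enrichment of 46.9, but its GR peak of 13.4 ranked 1079 of 1815, and H3K27ac was called there with both hormones only. At chr18:3540878-3541181 the ER value was 36.3 and the GR value 6.49, and at chr2:102601730-102602247 they were 34.2 and 7.70, with summits 194 bp apart. The other 4 of the strongest 8 were chr5:11415902-11416273, chr21:16563265-16563505, chr6:18457354-18457575 and chr3:98641576-98641816, with GR fold enrichments from 13.1 to 20.9. With both hormones all 8 were called for ER and for GR, against 78.7% and 72.3% of all shared ER sites. Among shared sites in the strongest 25% of the ER list, these shares were 100% and 94.3%. Vehicle H3K27ac marked 4 of the 8, against 72.0% of all shared ER sites and 76.1% of those in the strongest 25% of the ER list.

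Ranked by −log10 q, the 8 strongest separate ER sites, drawn from a class that holds 90.0% of the ER list, had fold enrichments from 52.4 to 63.1. The top site, chr12:4120816-4121183, lay 768 kb from the nearest GR site and 18.5 kb from vehicle H3K27ac, and was acetylated with estradiol and with both hormones. The next, chr6:131228193-131228448, lay 271 kb from GR and was acetylated in all 4 lists. The site chrX:67682193-67682398 lay 2017 kb from GR and was acetylated in none. One of the 8, chr16:50994523-50994824, was only 6.90 kb from a GR site, the one under the shared ER site at chr16:50987470-50987687. The remaining 4 were chr15:39960696-39960988, chr22:28195642-28196101, chr4:90622375-90622695 and chr7:101647492-101647787, all at least 227 kb from GR. With both hormones all 8 were called for ER and 7 of them for GR, against 59.9% and 13.9% of all separate ER sites. In the strongest 25% of the ER list, 98.8% and 36.9% of separate sites were so called. Of the 8, 6 were on estradiol H3K27ac and 1 was on vehicle H3K27ac, against 47.7% and 32.9% of all separate ER sites. In the strongest 25% of the ER list, vehicle H3K27ac marked 35.9% of separate sites. The next strongest separate ER sites with vehicle H3K27ac, chr4:182609629-182609914 and chr9:132323295-132323673, lay 25.8 and 3.28 kb from GR and were acetylated in all 4 lists.

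The 8 strongest separate GR sites had fold enrichments from 70.3 to 96.7 and lay 37.1 to 1037 kb from ER. The first, chr4:23932516-23932997 (91.0), was acetylated in all 4 lists. The second, chr6:30894572-30894828 (96.7), was acetylated in none and lay 12.1 kb from vehicle H3K27ac. At chr17:8057659-8057936 (70.3) and chr4:122990732-122990974 (93.5) H3K27ac was called with dexamethasone and with both hormones, and not with estradiol or vehicle. The site chr3:127022979-127023486 (75.9) was acetylated in none, and chr20:10842224-10842491 (82.6), chr10:74008602-74008862 (73.2) and chr5:148345996-148346239 (79.4) in all 4. Dexamethasone H3K27ac thus marked 6 of these 8, and vehicle H3K27ac marked 4, against 29.8% and 28.5% of all separate GR sites. Vehicle H3K27ac marked 25.3% of separate sites in the strongest 25% of the GR list. The dexamethasone share was not split by strength. With both hormones all 8 were called for GR and 3 of them for ER, against 53.3% and 5.996% of all separate GR sites. Among separate sites in the strongest 25% of the GR list, these shares were 95.4% and 12.9%.

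The 1 bp rule split few borderline cases. The pair just inside it, an ER site at chr2:241191007-241191238 and a GR site at chr2:241190858-241191015, shared 9 bp. The next shared 12 and 13 bp. Just outside lay an ER site at chr12:53339401-53339496 and a GR site at chr12:53339498-53339651, whose facing ends were 2 bp apart, followed by distances of 12 and 13 bp. All 3 pairs just inside lay on vehicle H3K27ac, as did 1 of the 3 just outside. Of the 3203 separate ER sites, 18 had a GR site within 100 bp and 96 within 1 kb.

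Most sites of either receptor lay far from the other, with the shared sites counted at distance 0. The median distance from an ER site to the nearest GR site was 200 kb (interval of the median 181 to 221 kb), with quartiles of 24.8 and 690 kb. A GR site lay within 10 kb of 680 ER sites (19.1%), within 100 kb of 1395 (39.2%) and within 1 Mb of 2935 (82.4%). In the other direction the median was 68.6 kb (58.5 to 80.1), and 579 GR sites (31.9%) had an ER site within 10 kb. Without the shared sites, 323 of 3203 ER sites (10.1%) and 215 of 1451 GR sites (14.8%) had the other receptor within 10 kb. With the ER list cut to the length of the GR list, the medians were 214 kb from ER to GR and 224 kb from GR to ER, so that the distances of the 2 directions no longer differed beyond their intervals (185 to 238 and 191 to 269 kb).

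ER sites lay closer to each other than to GR. The median distance to the nearest other site of the same list was 27.3 kb for ER and 111 kb for GR, and the intervals were 24.0 to 31.0 and 85.7 to 137 kb. Separate ER sites lay a median of 265 kb (242 to 284) from GR. Separate GR sites lay 147 kb (123 to 173) from ER, which overlaps the interval for GR to GR. Cutting the ER list to the GR length gave 76.1 kb (60.1 to 94.6) from ER to ER, against 214 kb (185 to 238) from ER to GR. With that cut all GR sites lay 224 kb (191 to 269) from ER, farther than from each other. Sites of both receptors thus lay closer to their own kind in lists of equal length. Distance to the other receptor varied little with ER strength, with medians of 172, 201, 235 and 188 kb from the weakest 25% to the strongest. For GR the medians lengthened with strength, at 47.5, 66.99, 76.5 and 95.3 kb.

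**Figure D2:**
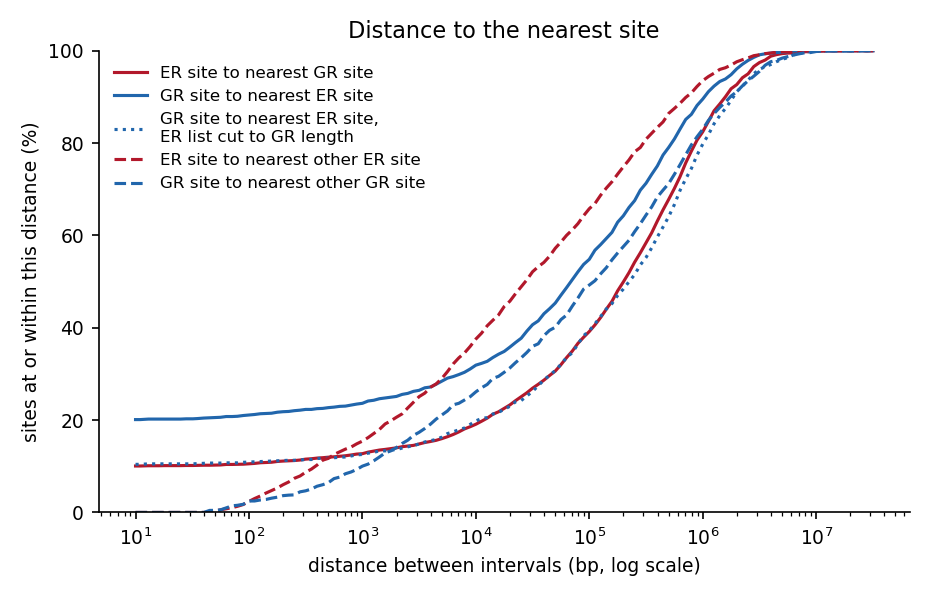
The curves give the share of sites (vertical, percent) with a neighbour at or within the distance on the horizontal axis (bp, log scale), with ER sites in red and GR sites in blue. Solid lines count the other receptor and start at the shared portions of 10.0% and 20.1%, dashed lines count other sites of the same receptor, and the dotted line, GR to the 1815 strongest ER sites, runs along the solid ER line.

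ER sites were grouped more often than GR sites in the lists as deposited, and not beyond the interval in lists of equal length. Another ER site lay within 10 kb of 1337 ER sites (37.6%, 36.0 to 39.2), and another GR site lay within 10 kb of 474 GR sites (26.1%, 24.1 to 28.2). With the ER list cut to the GR length the ER share was 27.3% (25.2 to 29.4), a difference from GR of 1.16 percentage points (−1.72 to 4.03). Joining neighbours within 10 kb gave 158 ER clusters of 3 or more sites, which held 581 sites and at most 9 in 1 cluster. For GR there were 44 such clusters, which held 144 sites and at most 5. The cut ER list had 46, which held 145 sites and at most 4.

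Shared sites were grouped more often than separate ones. Another ER site lay within 10 kb of 184 of 357 shared ER sites (51.5%) and of 1153 of 3203 separate ones (36.0%), a difference of 15.5 points (10.1 to 20.9). For GR the shares were 45.6% of shared and 21.2% of separate sites, a difference of 24.4 points (18.9 to 29.9). Seen from the clusters, GR overlapped 7.78% of single ER sites, 10.7% of ER sites in clusters of 2 and 17.7% of those in clusters of 3 or more. ER overlapped 14.8%, 32.4% and 41.0% of GR sites in the same order.

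The receptors also met in neighbourhoods without overlapping. Joined over both lists within 10 kb, 420 groups held both receptors, and 123 of these had no overlapping pair. They contained 711 ER sites (19.97%) and 581 GR sites (32.0%). A further 88 groups held 3 or more ER sites and no GR site, and 14 held 3 or more GR sites and no ER site. Only 19 groups held at least 3 sites of each.

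The first of the largest ER clusters, chr3:134045895-134094190, had 9 ER sites over 48.3 kb with fold enrichments up to 51.4. It held 1 GR site, and 7 of the 9 ER sites were on vehicle H3K27ac. For comparison, vehicle H3K27ac overlapped 65.4% of all ER sites in clusters of 3 or more. The other cluster of 9 ER sites, chr11:69042135-69069511, was part of the mixed group with the most sites: 6 of its ER sites overlapped GR, and with its 6 GR sites it made a group of 15 sites, all on vehicle H3K27ac. By contrast, the 8 ER sites of chr2:11638702-11680159 lay 211 kb from the nearest GR site. Of these, 4 overlapped H3K27ac with estradiol, 0 with dexamethasone, 5 with both hormones and 0 with vehicle. The shares of all ER sites were 50.6%, 27.5%, 46.5% and 36.8% in that order. With both hormones, 7 of the 8 were called for ER and 6 for GR, against 61.8% and 19.7% of all ER sites. The 7 ER sites of chr17:55952810-55980922 were acetylated in all 4 lists, and the nearest GR site lay 0.06 kb away without overlapping. Of the 7 ER sites at chr10:80901943-80922833, 5 were on vehicle H3K27ac and GR lay 167 kb away.

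The largest GR clusters of the shorter GR list held 4 or 5 sites. The 5 GR sites of chr12:6480530-6485635 spanned 5.11 kb, 4 of them overlapped ER, and all 5 were on vehicle H3K27ac. In chr4:102863036-102876362 the 5 GR sites lay 34.5 kb from ER, 4 were on vehicle H3K27ac and all 5 were on dexamethasone H3K27ac. Of the 5 GR sites at chr13:114053363-114068204, 2 overlapped ER and all 5 were acetylated with vehicle. The 4 GR sites of chr14:69014388-69017425 were acetylated in every list, 2.01 kb from ER, and the 4 of chr17:37817299-37831495 were marked at 2 sites with vehicle and at 4 with both hormones. The mixed group chr22:39679742-39705800 held 5 ER and 4 GR sites of which 1 pair overlapped, and 8 of the 9 were on vehicle H3K27ac.

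In vehicle-treated cells the places of shared sites were far more often acetylated than those of separate ones. Vehicle H3K27ac overlapped 36.8% of all ER sites and 37.2% of all GR sites. It overlapped 257 of 357 shared ER sites (72.0%, 67.02 to 76.6) and 1053 of 3203 separate ER sites (32.9%, 31.2 to 34.5), a difference of 39.1 points (34.0 to 43.8). For GR it overlapped 263 of 364 shared sites (72.3%, 67.3 to 76.8) and 413 of 1451 separate sites (28.5%, 26.2 to 30.9), a difference of 43.8 points (38.4 to 48.7). The gap was present at every strength. From the weakest 25% of the ER list to the strongest, 74.8%, 72.6%, 64.5% and 76.1% of shared sites were marked, against 32.8%, 32.3%, 30.5% and 35.9% of separate sites. In the GR list the same order gave 76.4%, 74.7%, 66.7% and 69.2% of shared sites, against 32.3%, 29.1%, 27.7% and 25.3% of separate sites. It was also present without clustering: among ER sites with no ER neighbour within 10 kb, 59.5% of shared and 22.5% of separate sites were marked, and among single GR sites 60.1% of shared and 23.3% of separate sites were.

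**Figure D3:**
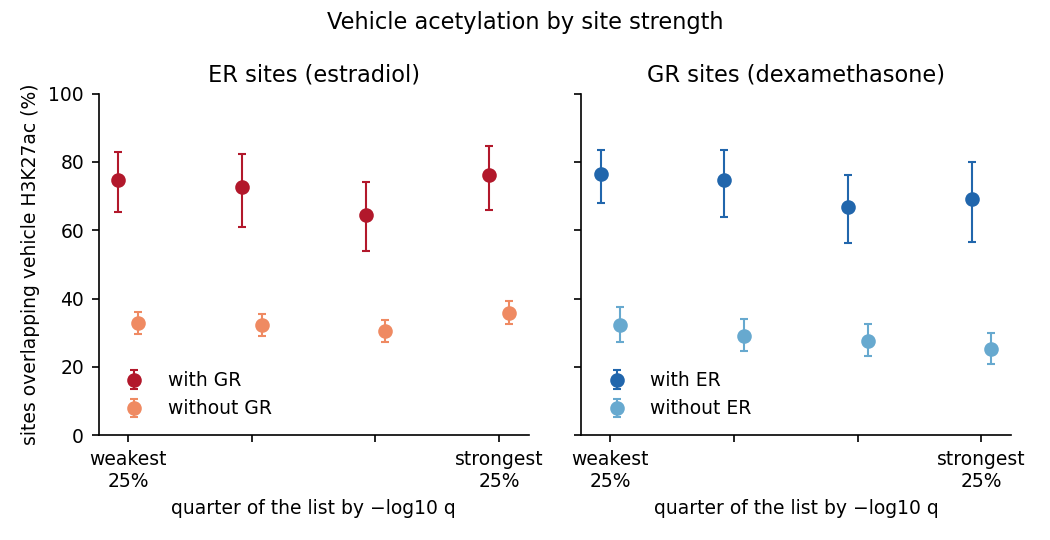
Share of sites overlapping vehicle H3K27ac (vertical, percent, bars are exact 95% intervals over sites) in each 25% of the ER list (left panel) and of the GR list (right panel), ordered from weakest to strongest. Shared sites (dark) lie between 64.5% and 76.4% and separate sites (light) between 25.3% and 35.9%, whatever the strength.

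The 2 kinds of separate site differed less from each other than from shared sites. The separate ER share exceeded the separate GR share by 4.41 points (1.54 to 7.21). The difference depended on the rules used. With the ER list cut to the GR length the shares were 33.4% and 33.5%, a difference of −0.14 points (−3.38 to 3.09), and that cut turned 175 shared GR sites, 132 of them (75.4%) on vehicle H3K27ac, into separate ones. With each list cut to its stronger 50% the difference was 5.63 points (1.70 to 9.44). With the site's summit required inside the H3K27ac peak it was 2.34 points, with an interval that included 0 (−0.42 to 5.02). Within the deposited lists the difference was 10.7 points (5.06 to 15.9) in the strongest 25% of each list, at 35.9% for ER and 25.3% for GR. In the 3 weaker parts it was between 0.46 and 3.20 points, with intervals that included 0. Single separate sites were marked at 22.5% for ER and 23.3% for GR, and separate sites in clusters of 3 or more at 60.3% and 64.7%.

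Acetylation fell off with distance from the other receptor. ER sites 1 bp to 1 kb from a GR site were marked with vehicle at 66.7% (56.3 to 76.0, 96 sites), those 1 to 10 kb away at 58.1% (51.4 to 64.6), 10 to 100 kb away at 41.0%, 100 kb to 1 Mb away at 27.01% and beyond 1 Mb at 23.7% (20.4 to 27.2, 625 sites). GR sites gave 60.0%, 45.3%, 31.0%, 22.7% and 17.9% over the same distances from ER. The share with a neighbour of the same receptor within 10 kb fell along the same distances, from 65.6% at 1 bp to 1 kb to 26.1% beyond 1 Mb for ER, and its part in the acetylation gradient was not tested. Median fold enrichment moved little along these distances, between 12.2 and 15.0 for ER and between 12.7 and 14.1 for GR.

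**Figure D4:**
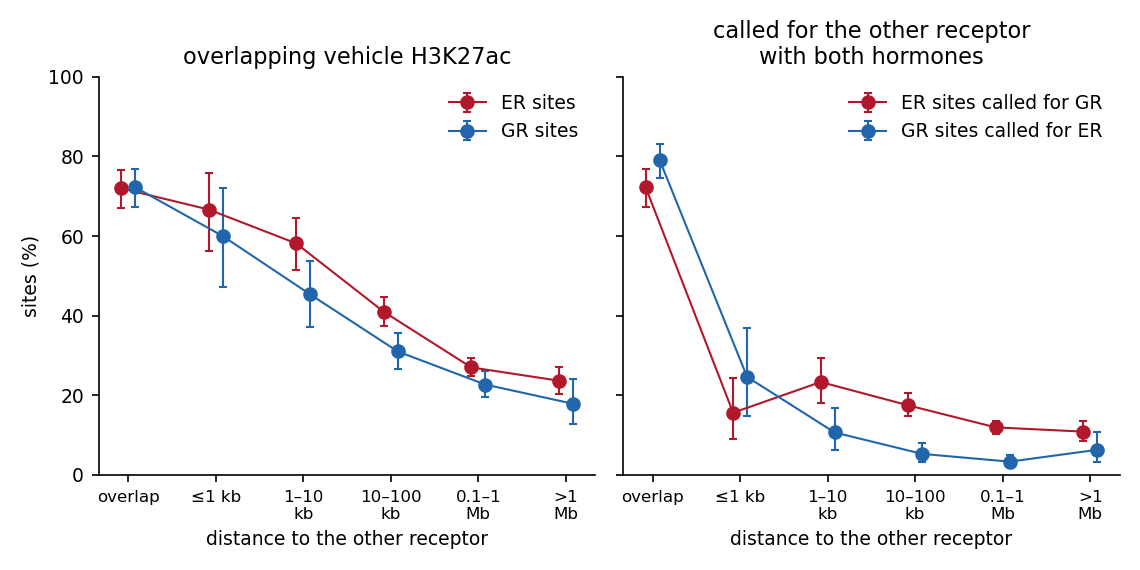
Share of ER sites (red) and GR sites (blue) by distance to the nearest site of the other receptor (horizontal, from overlap to over 1 Mb), with exact 95% intervals over sites. The left panel gives overlap with vehicle H3K27ac, which declines stepwise to 23.7% and 17.9%, and the right panel gives calls for the other receptor with both hormones, which stand at 72.3% and 79.1% at shared sites and at 15.6% and 24.6% from 1 bp to 1 kb.

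The acetylated regions that held both receptors were wide. Of the 21120 vehicle H3K27ac peaks, 5.32% held an ER site and 2.86% a GR site. ER sites alone were in 861 peaks (4.08%) and GR sites alone in 340 (1.61%). Both receptors were in a further 227 with an overlapping pair and 36 without one. Median widths were 2894 bp for regions with an overlapping pair, 2826.5 bp for regions with both receptors apart, 1367 bp for ER only, 1448.5 bp for GR only and 523 bp for regions with neither. Wide regions can hold more sites, and the part of width was not tested. Most unmarked separate sites were not at the edge of a vehicle region: 1504 of 2150 unmarked separate ER sites (70.0%) and 766 of 1038 unmarked separate GR sites (73.8%) lay over 10 kb from any.

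After hormone, separate ER sites and separate GR sites parted. Separate ER sites overlapped H3K27ac at 47.7% with estradiol, 23.0% with dexamethasone and 43.0% with both hormones, against 32.9% with vehicle. All ER sites together did so at 50.6%, 27.5% and 46.5%. Separate GR sites overlapped it at 30.0% with estradiol, 29.8% with dexamethasone and 35.0% with both, against 28.5% with vehicle, and all GR sites at 39.7%, 36.9% and 43.9%. The dexamethasone H3K27ac library had the fewest usable tags and the highest share of duplicates (33%) of the 4, and the shortest list, with 15192 peaks. The separate ER share was 17.8 points (14.8 to 20.6) above the separate GR share in the estradiol list, and the difference was −6.76 points (−9.56 to −4.03) in the dexamethasone list.

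With the 4 H3K27ac lists cut to equal length, each kind of separate site kept its lead in the list of its own hormone. Separate ER sites were marked at 42.5% with estradiol, 23.0% with dexamethasone and 40.6% with both hormones, against 29.7% with vehicle. Separate GR sites were marked at 25.4%, 29.8% and 32.7%, against 26.2% with vehicle. Shared ER sites were at 74.2%, 68.1% and 77.0%, against 69.7% with vehicle.

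**Figure D5:**
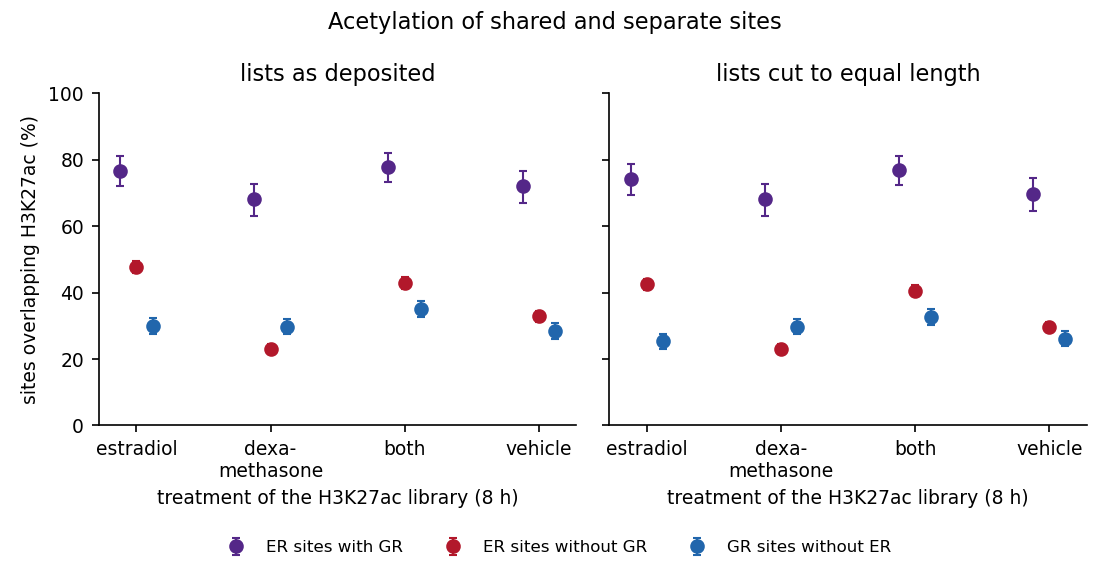
Share of shared ER sites (purple), separate ER sites (red) and separate GR sites (blue) overlapping H3K27ac after 8 h of each treatment, with exact 95% intervals over sites, for the lists as deposited (left panel) and cut to equal length (right panel). Separate ER sites lie above separate GR sites with estradiol and below them with dexamethasone in both panels, and shared sites stay above both.

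Sites unmarked with vehicle showed the same hormone pattern. The counts are from the lists as deposited, which held 23888 peaks with estradiol, 15192 with dexamethasone and 20873 with both hormones. Of the 2150 separate ER sites without vehicle H3K27ac, 502 (23.3%, 21.6 to 25.2) were marked with estradiol, 49 (2.28%, 1.69 to 3.002) with dexamethasone and 393 (18.3%) with both. Of the 1038 such GR sites, 59 (5.68%, 4.35 to 7.27) were marked with estradiol, 100 (9.63%, 7.91 to 11.6) with dexamethasone and 132 (12.7%) with both. With H3K27ac counted within 1 kb, 62.8%, 40.5% and 59.8% of all ER sites had a peak with estradiol, dexamethasone and both hormones, against 45.7% with vehicle. For all GR sites these were 48.0%, 52.8% and 54.2%, against 45.5% with vehicle. Of the 1864 separate ER sites over 1 kb from vehicle peaks, 601 (32.2%) had one within 1 kb with estradiol and 82 (4.399%) with dexamethasone. Of the 921 such GR sites, 50 (5.43%) had one with estradiol and 163 (17.7%) with dexamethasone, a wider contrast than by overlap. At the 100 shared ER sites unmarked with vehicle, 22 were marked with estradiol, 8 with dexamethasone and 26 with both. Their estradiol share (22%, 14.3 to 31.4) was close to that of separate ER sites, so it was not particular to separate sites. At the 101 such shared GR sites, 28.7% were marked with estradiol, 8.91% with dexamethasone and 30.7% with both. Of the 68 shared ER sites over 1 kb from vehicle peaks, 22 (32.4%) had one within 1 kb with estradiol. With dexamethasone 19 (27.9%, 17.7 to 40.1) did. For the 69 such shared GR sites the counts were 22 (31.9%) and 19 (27.5%, 17.5 to 39.6). By the 1 kb rule the dexamethasone share was therefore not particular to separate GR sites.

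Sites marked with vehicle were also missing unevenly from the hormone lists, which differ in length. Of all 21120 vehicle H3K27ac peaks, 6.93% had no overlapping peak in the estradiol list, 53.3% none in the dexamethasone list and 22.5% none in the both-hormone list. Of all vehicle-marked ER sites, 2.37% were absent from the estradiol list and 29.5% from the dexamethasone list, and of all vehicle-marked GR sites 6.36% and 17.0%. Of the 1053 separate ER sites with vehicle H3K27ac, 26 (2.47%) were absent from the estradiol list and 365 (34.7%, 31.8 to 37.6) from the dexamethasone list. Both were below the share of all vehicle peaks, but that share counts peaks and not sites. Vehicle peaks holding only ER sites were also wider, with a median of 1367 bp against 547 bp for all. Of the 413 separate GR sites with vehicle H3K27ac, 37 (8.96%, 6.39 to 12.1) were absent from the estradiol list and 81 (19.6%, 15.9 to 23.8) from the dexamethasone list. The estradiol value was above the share of all vehicle peaks, which lay within its interval, and the dexamethasone value was below. At the 257 marked shared ER sites 5 (1.95%) were absent from the estradiol list and 22 (8.56%) from the dexamethasone list. Nearly equal parts of both kinds of separate site were marked in all 4 lists, 21.1% of ER and 20.8% of GR, compared with 63.9% of shared ER sites. Those marked in none made up 48.1% of separate ER sites, 59.8% of separate GR sites and 18.8% of shared ER sites.

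Shared sites were called again more often when both hormones were given. In those libraries, ER was called at 78.7% (74.1 to 82.8) of shared ER sites and at 59.9% (58.2 to 61.6) of separate ones, where all ER sites gave 61.8%. GR was called at 70.6% (65.6 to 75.2) of shared GR sites and at 53.3% (50.7 to 55.9) of separate ones, where all GR sites gave 56.8%. In the weakest 25% of the ER list, 48.5% of shared and 18.3% of separate sites were called again for ER, and in the strongest 25%, 100% (88 sites) and 98.8%. Of the 367 pairs, 228 were called for both receptors, 63 for ER alone, 32 for GR alone and 44 for neither.

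A part of the separate sites was called for the other receptor with both hormones, ER sites more often than GR sites. GR was called at 445 of 3203 separate ER sites (13.9%, 12.7 to 15.1), where 19.7% of all ER sites were called. ER was called at 87 of 1451 separate GR sites (5.996%, 4.83 to 7.34), where 20.7% of all GR sites were. The difference was 7.90 points (6.13 to 9.56). The both-hormone lists held 2382 ER and 1628 GR peaks, against 3560 and 1815 with each receptor's own hormone alone. The part of list length in this difference was not tested. The shares rose with site strength: from the weakest 25% to the strongest, GR was called at 2.16%, 5.998%, 10.4% and 36.9% of separate ER sites, and ER at 2.42%, 2.96%, 4.99% and 12.9% of separate GR sites. By vehicle acetylation, GR was called at 16.7% (14.5 to 19.1) of marked and 12.5% (11.1 to 14.0) of unmarked separate ER sites. In the weakest 25% of the list the shares were 0.78% (0.09 to 2.77) marked and 2.84% (1.60 to 4.63) unmarked, and in the strongest 25% they were 43.8% (37.9 to 49.7) marked and 33.1% (29.0 to 37.3) unmarked, so the direction was not the same at every strength. For separate GR sites the shares were 5.57% (3.56 to 8.24) marked and 6.17% (4.78 to 7.81) unmarked.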

How the data were processed

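ChIP-seq peak lists of 8 of the 11 listed samples were used, and the 3 others (ER and GR with vehicle, and the control) were not analysed here. The submitters' processing notes name Bowtie 1.1.2 and hg19. MACS2 2.1.0.20140616, per the file headers, called narrow peaks at a p-value cutoff of 1e-10, keeping 1 tag per position and scaling the larger of ChIP and control library to the smaller. Deposited positions are 1-based. The deposited pileup is a signal at the summit, each peak's p-value and q-value are deposited as −log10 (the headers say that q would not be computed, but the column holds values), and fold enrichment is the authors' ratio over local control. The 8 h of the H3K27ac libraries follow their treatment label, while the protocol text gives 1 h for all. The labels of the control name both input and IgG, so its kind is uncertain. Usable tags ranged from 3479280 in the ER control library to 18508574 in the vehicle H3K27ac library, and a site not called is below the cutoff at that depth, not shown to be unbound.

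From these positions, overlaps (1 bp), distances between interval ends, single-linkage clusters (10 kb) and shares were computed with Python 3.11.15, numpy 2.4.6 and scipy 1.17.1. The interval code was tested on simulated lists and against bedtools 2.31.1. Shares carry exact Clopper-Pearson 95% intervals, differences carry Newcombe intervals and medians carry order-statistic intervals. Sites were ranked by −log10 q. The members and lists were chosen with earlier results of these data known. Named are the 8 strongest sites of each class, the 5 largest clusters of each kind (ER, GR, mixed), the 3 strongest separate sites with and without vehicle H3K27ac, and the 3 pairs on each side of the overlap rule. Genes and sequences were not analysed here.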

Additional observations from a re-analysis of the deposited data

How the results depend on the processing

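Of 77 alternative values over 25 results, 31 stayed within the 95% interval of the main value, 45 moved outside it and 1 changed sign. No paired analysis was possible because each group holds 1 library, and no library could be left out for the same reason. Motif shares were not run, because no hg19 genome was used here. The sign change was the vehicle H3K27ac difference between separate ER and separate GR sites, −0.14 points with the ER list cut to the GR length. With site summits inside the H3K27ac peak it was 2.34 points (−0.42 to 5.02), an interval that includes 0.

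Shared portions were 8.46% of ER and 16.5% of GR sites with summits within 100 bp, 12.7% and 23.6% within 1 kb, and 5.17% and 10.0% with each list cut to its stronger 50%; with the ER list cut to the GR length the GR portion was 10.4%. Median distances were 597 kb (ER to GR) and 280 kb (GR to ER) in the stronger 50%, and 224 kb from GR to ER with the ER list cut. Sites with a neighbour of the same receptor were 29.0% (ER) and 21.1% (GR) within 5 kb, 57.1% and 40.1% within 50 kb, and 26.6% and 16.0% in the stronger 50%; the cut ER list gave 27.3%. Fewer sites in a list lengthen distances and thin out neighbours by construction.

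Vehicle H3K27ac within 1 kb covered 41.8% of separate ER, 36.5% of separate GR and 81.0% of shared ER sites. Counting summits inside a peak gave 27.6%, 25.3% and 65.5%, and the stronger 50% of the H3K27ac list gave 26.2%, 23.0% and 66.9%. Separate ER sites of the stronger 50% had 35.2%, and separate GR sites against the cut ER list 33.5%. Within 1 kb, the estradiol, dexamethasone and both-hormone lists covered 60.1%, 35.7% and 56.6% of separate ER sites, 38.3%, 45.1% and 45.7% of separate GR sites, and 86.8%, 83.5% and 88.2% of shared ER sites. With H3K27ac lists of equal length, separate ER sites had 42.5% with estradiol and 40.6% with both hormones, and separate GR sites 25.4% with estradiol.

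With both hormones, ER was called at 74.1% of shared ER sites by summits within 100 bp. In the stronger 50% of all lists, GR was called at 77.2% of shared and 12.1% of separate ER sites, and at 57.4% of separate GR sites, where ER was called at 4.16%. Shared ER sites exceeded separate ER sites in vehicle acetylation under all 6 alternatives run. The cause of shifts other than those by construction was not tested.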

Other observations

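The balance of the receptors differed between chromosomes, which were singled out after their values were seen. Over all 23 chromosomes there were 1.96 ER sites per GR site. Chromosome 16 held 126 ER and 35 GR sites (3.6 per GR site), chromosome 22 held 92 and 30 (3.07), and chromosome X held 37 and 30 (1.23). Chromosome 12 had the highest shared portions, with 33 of 173 ER sites (19.1%, 13.5 to 25.7) and 33 of 114 GR sites (28.9%, 20.8 to 38.2). On chromosome 20, 1 of 84 ER sites (1.19%, 0.03 to 6.46) and 1 of 34 GR sites was shared. These differences were not tested.

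Separate sites close to the other receptor were called for that receptor with both hormones at shares set here beside those of all separate sites, 13.9% for ER sites and 5.996% for GR sites. Separate ER sites 1 bp to 1 kb from a GR site were called for GR at 15.6% (9.02 to 24.5, 96 sites), those 1 to 10 kb away at 23.3% (18.0 to 29.4), and those beyond 1 Mb at 10.9% (8.55 to 13.6). Separate GR sites 1 bp to 1 kb from an ER site were called for ER at 24.6% (14.8 to 36.9, 65 sites), those 1 to 10 kb away at 10.7% (6.22 to 16.7), and those beyond 1 Mb at 6.32% (3.31 to 10.8). The lowest GR share, 3.33% (2.07 to 5.05), was at 100 kb to 1 Mb.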
